A study of Rattus norvegicus with 9 samples.

Results

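The genes described here were at a similar level in Control and 1 d after PEL surgery and were higher 7 d after it. They were chosen by their measured levels in rat hypothalamic tissue, with 79 genes kept of 34784 in the count table, and 75 of the 79 had Ensembl rat gene IDs. Levels were taken as counts per 1000000 counts of the library (CPM), averaged over the 3 libraries of a group, and differences between groups as the log2 ratio of mean CPM + 1. A gene was kept when its mean at 7 d was at least 5 CPM, when the log2 ratio of 7 d to Control and that of 7 d to 1 d were both at least 0.5, when the log2 ratio of 1 d to Control was below 0.4 in size, and when all 3 libraries of 7 d lay above the other 6. Every contrast among the 3 groups was thus used in the choice, so the levels and differences of these genes in the 9 libraries are given as a description. Calls of a model fitted over all genes are given further on as counts, beside the share of all genes called, and support nothing about these genes.

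The tissue was the supraoptic and paraventricular nuclei of S-D rats, measured by bulk RNA sequencing with 3 libraries from each of Control, the first day after PEL surgery and the seventh day after it. PEL is not spelled out in the labels. In the published study it is an electrical lesion of the pituitary stalk, made to model central diabetes insipidus, in which too little vasopressin leaves the kidney unable to concentrate urine. The labels give neither the age of the rats nor what was done to the Control animals, and they do not say whether each library came from its own animal. Total counts ran from 13338433 to 21012998 per library and were lowest in 1 d replicate 3. Not every 1 d library was below the rest, since 1 d replicate 1 had 17294334 and 7 d replicate 2 had 17014260.

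The supraoptic and paraventricular nuclei hold magnocellular neurons, whose axons run through the pituitary stalk and release vasopressin and oxytocin in the posterior pituitary. When such axons are cut or burned, the injured neurons switch gene programmes, and astrocytes, microglia and invading blood cells respond over hours to days. Late responses in injured brain tissue commonly involve glial remodelling, clearance of debris and attempts at axon growth. Which of these the 79 genes belong to could not be read here, because the count table gives gene IDs without symbols and 0 of its IDs were matched to a symbol in the rat gene table used, so no function is attached to any of them. For the same reason the markers of neurons, glia, blood cells and neighbouring brain regions could not be looked up in these libraries, and the part that a changed mix of cells or a changed dissection may have in the values was not tested. In bulk tissue, more cells of a type and more RNA per cell cannot be told apart.

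The differences at 7 d were mostly moderate. The ratio of the 7 d mean to the Control mean had a median of 1.70 over the 79 genes, with a lowest value of 1.42, and the ratio to the 1 d mean a median of 1.71 and a lowest value of 1.43. On the log2 scale of CPM + 1, the difference from Control had a median of 0.70 and was at least 1 in 10 genes, and the difference from 1 d had a median of 0.73 and was at least 1 in 12. Both were at least 1 in 6 genes. The lowest 7 d library stood above the highest of the other 6 by a median factor of 1.21, by at least 1.5 in 7 genes and by at least 2 in 4, while in 16 genes this factor was below 1.1. Among all 12160 genes with a 7 d mean of at least 5 CPM, 4.76% had all 3 libraries of 7 d above the other 6, a condition that the 79 met by choice.

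**Figure D1:**
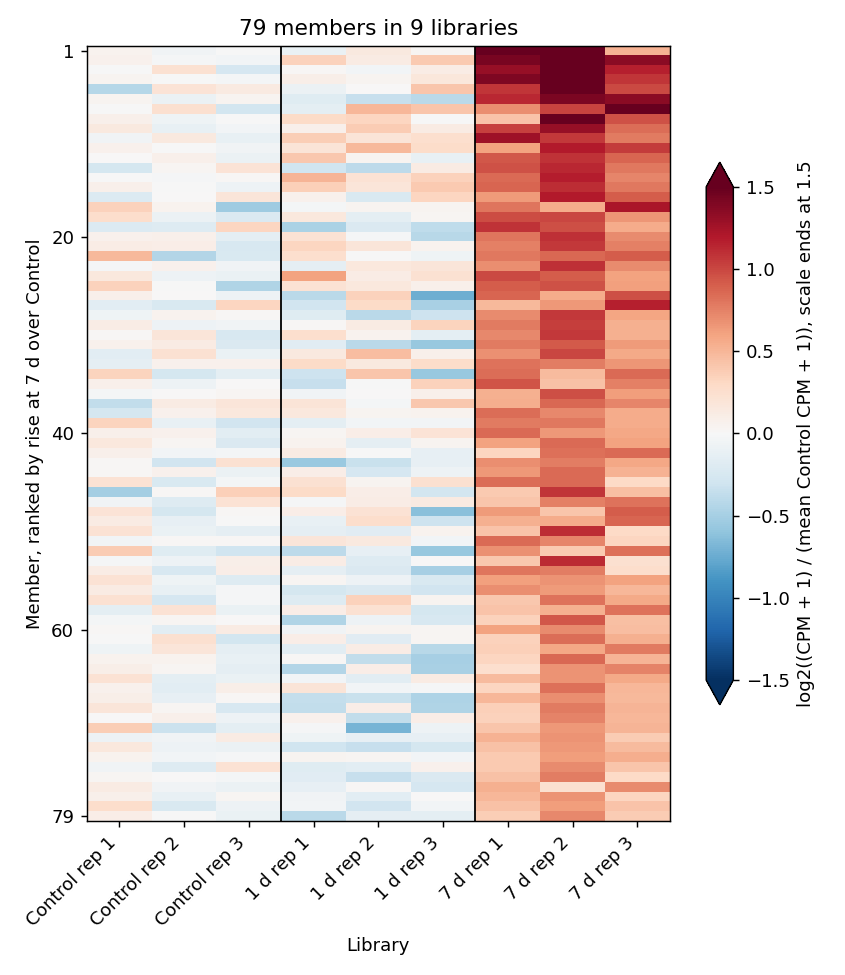
Each row is 1 of the 79 genes, ranked from the largest to the smallest difference between 7 d and Control, and each column 1 library. Colour gives log2 of CPM + 1 relative to the gene's mean in Control (red higher, blue lower, with 8 cells beyond the ends of the scale at 1.5 either way). The 3 columns of 7 d are red in every row, as the rule requires, and 7 d replicate 2 is the highest of them in 53 rows.

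The largest difference belonged to Novel01075, whose ID is outside Ensembl's naming. Its level was 0.248, 0.158 and 0.1904 CPM in Control replicates 1, 2 and 3, 0.116, 0.323 and 0.225 CPM at 1 d, and 8.30, 5.99 and 0.719 CPM at 7 d. The 7 d libraries did not form a tight group, since the third lay far nearer to the Control and 1 d libraries than to the other two. These levels rested on 5, 3 and 4 counts in Control, 2, 5 and 3 at 1 d and 155, 102 and 13 at 7 d. Its mean at 7 d, 5.003 ± 3.88 CPM (SD, n = 3), was the lowest of the 79, just above the limit of 5 CPM.

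The next largest difference was that of ENSRNOG00000017369. Its level was 5.11, 4.75 and 4.66 CPM in the 3 Control libraries, 6.42, 5.37 and 6.67 CPM at 1 d, and 14.7, 23.6 and 13.99 CPM at 7 d. All 3 libraries of 7 d were more than 2 times the highest of the other 6, and the 1 d libraries lay slightly above all 3 of Control. Group means in CPM were 4.84 ± 0.239 (Control), 6.15 ± 0.692 (1 d) and 17.4 ± 5.38 (7 d), with SD and n = 3, a 3.60-fold difference between 7 d and Control and a 2.83-fold difference between 7 d and 1 d. In the model described below the log2 fold change of 7 d over Control was 1.84 (SE 0.207).

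Other genes near the top of the ranking showed how far replicates could differ. The gene ranked 6 by its difference from Control had the clearest gap of all, a factor of 2.29 between its lowest 7 d library and the highest other library. In CPM it stood at 7.001, 6.33 and 6.996 (Control), 5.84, 5.11 and 4.87 (1 d) and 16.1, 19.6 and 18.9 (7 d). Its 1 d libraries were all below its Control libraries, so its lowest point was 1 d and not Control. The gene ranked 5, by contrast, was at 180.5, 331 and 171 CPM at 7 d, with 63.5, 99.1 and 94.2 CPM in Control and 80.7, 85.7 and 114 CPM at 1 d. In that gene 7 d replicate 2 stood far above the other replicates of its group.

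In the gene ranked 8 the separation rested on a narrow margin. Its 7 d levels were 8.46, 21.98 and 12.7 CPM, of which the lowest was 1.08 times the highest other library, a 1 d library at 7.82 CPM. The gene ranked 7 was highest in 7 d replicate 3, at 17.98, 22.8 and 38.5 CPM in the 3 libraries of 7 d against 8.66 to 12.9 CPM in Control and 9.60 to 15.6 CPM at 1 d.

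Most of the transcript mass of the set came from a few abundant genes with modest ratios. At 7 d the 79 genes had mean levels of 5.003 to 4977 CPM, with 16 below 10 CPM, 36 from 10 to 50 CPM, 18 from 50 to 200 CPM and 9 at 200 CPM or more. Their share of all counts was 0.719 to 0.854% in Control, between 0.651 and 0.748% at 1 d and between 1.196 and 1.28% at 7 d. The most abundant gene accounted for 40.6% of their summed CPM at 7 d, and the 3 most abundant for 64.0%. Without those 3 the summed level in CPM was 2519 to 2712 for Control, 2429 to 2694 for 1 d and 4255 to 4726 for 7 d.

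The most abundant gene stood, in CPM, at 3740, 3078 and 2819 (Control), 3280, 3039 and 2743 (1 d) and 4925, 5129 and 4878 (7 d). Its 7 d libraries agreed closely with each other, and its mean at 7 d was 1.55 times that of Control and 1.65 times that of 1 d. The second most abundant stood at 1503, 1301 and 1434 (Control), 1099, 1124 and 1024 (1 d) and 1989, 2298 and 1987 CPM (7 d). All its 1 d libraries were below all its Control libraries, and its log2 ratio of 1 d to Control, -0.38, was the farthest from 0 in the set. In the model described below, its log2 fold change of 1 d over Control was -0.47. The third most abundant stood at 587, 388 and 420.5 (Control), 376.5, 622 and 313 (1 d) and 832, 646.5 and 840.1 CPM (7 d). There 1 d replicate 2 came within a few percent of the lowest 7 d library, while the other replicates of 1 d were far lower.

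**Figure D2:**
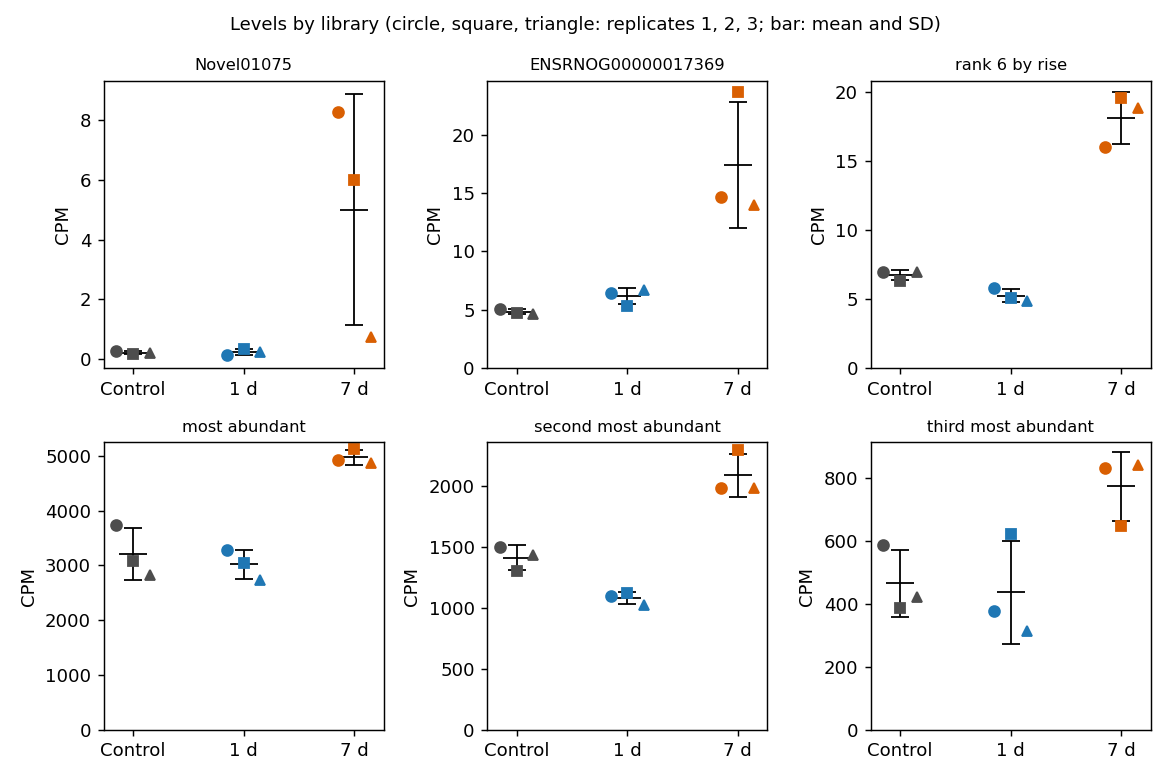
Level in CPM (vertical axes, linear) of 6 of the 79 genes in each library, by group, with the group mean and SD as bars (n = 3). Novel01075 has 1 of its 3 libraries of 7 d at 0.719 CPM, close to the other groups, while the most abundant gene has its 3 between 4878 and 5129 CPM, above all other libraries.

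At 1 d the 79 genes stood close to Control by the terms of the rule, though not all of them were flat. With CPM on library totals, 39 had a 1 d mean above and 40 a 1 d mean below Control, and the log2 ratio was within 0.1 of 0 in 35. All 3 libraries of 1 d lay above all 3 of Control in 7 genes and below them in 9. With library sizes scaled by the TMM method, which corrects for the makeup of each library, the median log2 fold change of the 79 at 1 d was -0.08, against -0.02 over all tested genes. With library totals in the same model these medians were 0.00113 and 0.07, so the scaling moved both together and the 79 had the lower median under both. By the edgeR quasi-likelihood test 4 of the 79 were called at 1 d against Control, all 4 lower at 1 d, where 20.4% of all tested genes were called in either direction. The second most abundant gene and the gene ranked 6 by its difference from Control were among these 4. The number called dropped to 1 when Control replicate 1, 1 d replicate 1 or 1 d replicate 3 was left out, and to 2 when Control replicate 2 or 7 d replicate 1 was left out or when Control and 1 d were fitted by themselves. A log2 ratio of 1 d to Control below 0.4 in size was a condition of the choice, as was that of 7 d to 1 d of at least 0.5. Nothing is therefore read from this number or from the lower medians.

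**Figure D3:**
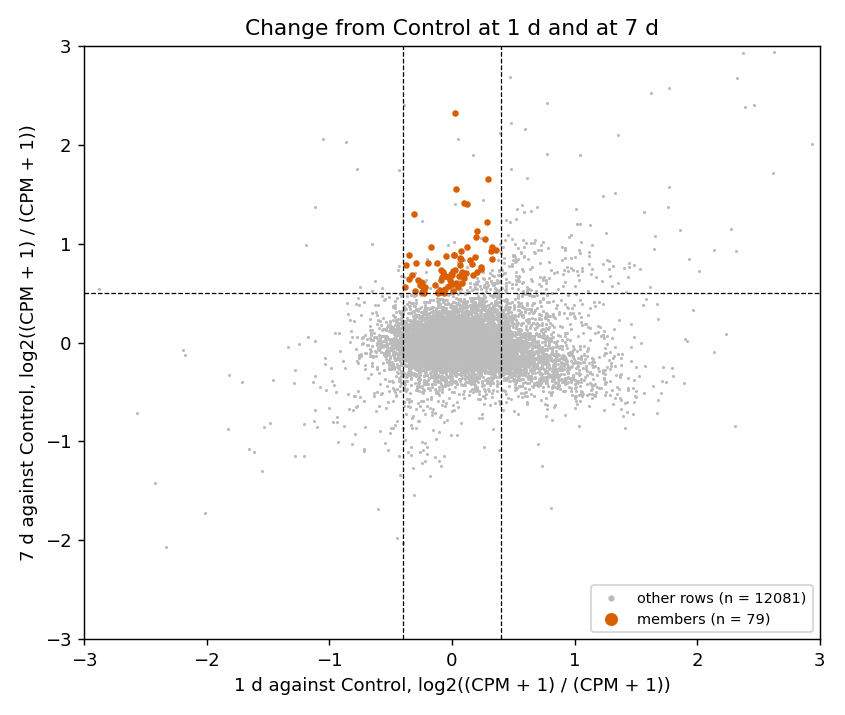
Each point is 1 gene with a 7 d mean of at least 5 CPM, placed by its log2 ratio of mean CPM + 1 at 1 d against Control (horizontal) and at 7 d against Control (vertical). The 79 genes (orange) lie above the line at 0.5 and between the lines at -0.4 and 0.4 by choice, most of them near the lower edge. The 12081 other genes are grey, and 13 lie outside the axes.

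The rule's limits cut through a continuous range of values. The 3 genes just inside the limit on the difference from Control had log2 ratios of 0.5003, 0.501 and 0.506, and the 3 that met every other condition just outside it had 0.499, 0.498 and 0.497. For the difference from 1 d the values were 0.505, 0.508 and 0.513 inside and 0.496, 0.464 and 0.452 outside. For the ratio of 1 d to Control they were -0.384, -0.371 and 0.362 inside and 0.404, 0.417 and -0.431 outside. The last of these was an abundant gene, with means of 2864 (Control), 2124 (1 d) and 4890 CPM (7 d), which would otherwise have been the second most abundant of the set. The limit on the difference from Control alone removed 63 genes that met the other 4 conditions, that on the 7 d level and that on the separation of libraries 35 each, that on the difference from 1 d 19 and that on 1 d against Control 18.

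Across the whole table the genes were also fitted with edgeR's quasi-likelihood test in 1 model of all 9 libraries, and p-values were adjusted over all 17345 tested genes by the Benjamini-Hochberg method. All 79 were among the tested genes. Of them 34 were called higher at 7 d than in Control (adjusted p below 0.05), against 0.842% of all tested genes, and 77 passed as higher when 7 d was set against 1 d, where 13.4% of all tested genes did. All 79 were chosen for these differences, so these numbers describe how many passed a model's threshold and support nothing. The 34 were all among the 77. The other 45 had every 7 d library above every Control library but did not reach the threshold against Control.

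The number of members called against Control depended strongly on single libraries. It dropped to 1 when Control replicate 2 was left out and to 15 when Control replicate 3 was, and rose to 46 without Control replicate 1. Leaving out 7 d replicate 1 gave 12, 7 d replicate 2 gave 9 and 7 d replicate 3 gave 27. The 1 d libraries are not among the groups compared here, but they share the scaling, filter and estimate of spread of the 1 model. Leaving out 1 d replicate 1 gave 21, and 1 d replicate 2 or 3 gave 23. Fitting Control and 7 d by themselves gave 9, and DESeq2 gave 59. The number called against 1 d stayed between 62 and 79 over the same alternatives. Looked at from the side of the model, 72 genes were called higher at 7 d than both Control and 1 d and not called at 1 d. Of these 31 were among the 79, which is 43.1% of the 72 and 39.2% of the 79. The call list and the rule, which share every library, thus picked partly different genes.

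The 3 libraries of 7 d did not contribute alike. The choice used the mean of these libraries, so a gene with a high library passed the limits on means more easily. The comparisons with all genes given here are therefore a description. The rule treated the 3 libraries alike, and why they contributed unequally was not tested. Replicate 2 was the highest of the group in 53 of the 79 genes (67.1%), against 37.6% of all genes with a 7 d mean of at least 5 CPM, and among the 24 genes with the largest differences from Control it was the highest in 17. It exceeded both other replicates by a factor of at least 1.2 in 29 of the 79 (36.7%), against 5.35% of all genes at that level. By the same measure replicate 1 did so in 1.27% of the 79 against 2.72%, and replicate 3 in 7.59% against 3.08%. Replicate 3 was the highest in 15 genes and replicate 1 in 11. Relative to the mean in Control, the median log2 ratio over the 79 was 0.68 in replicate 1, 0.84 in replicate 2 and 0.61 in replicate 3, with all 3 above the range from -0.05 to 0.06 of the Control and 1 d libraries. Without 7 d replicate 2 the rule kept 68 genes, of which 51 were among the 79. It kept 115 without 7 d replicate 1 (73 shared) and 90 without 7 d replicate 3 (74 shared).

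The 53 genes that were highest in 7 d replicate 2 had a median of 18.2 CPM at 7 d, against 26.4 CPM for those highest in replicate 1 and also for those highest in replicate 3. Their differences from Control were alike in size, with a median log2 ratio of 0.69 against 0.73 and 0.67.

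Control replicate 1 stood out in the opposite sense. The choice used the Control and 1 d libraries too, so the shares given here are a description as well. It was the highest of the 3 Control libraries in 44 of the 79 genes (55.7%), against 31.0% of all genes with a 7 d mean of at least 5 CPM, and the lowest in 15 (18.99%), against 49.8%. In those 44 genes it was the Control library nearest to the 7 d libraries. Without Control replicate 1 the rule kept 110 genes, 74 of them among the 79. It kept 79 without Control replicate 2 (65 shared) and 81 without Control replicate 3 (69 shared). With a library left out, the separation of libraries is asked of fewer values, so these numbers are not strictly like that of the full rule. At 1 d, replicate 2 exceeded both other replicates by a factor of at least 1.2 in 12 of the 79 (15.2%), against 2.36% of all genes at that level, and the genes ranked 3, 4 and 5 by their 7 d level were among these 12.

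The spread between replicates was larger in these genes than in others, above all at 7 d. The genes were chosen by these same values, and a high library at 7 d helps a gene pass the limits on means, so this is a description. The median coefficient of variation was 15.9% at 7 d, 11.3% at 1 d and 12.03% in Control, against 7.01, 7.38 and 10.3% over all 12160 genes with a 7 d mean of at least 5 CPM. They were also less abundant, with a median of 13.4 CPM in Control against 32.3 CPM, and 23.6 CPM at 7 d against 31.7 CPM. Whether abundance or the choice accounts for the wider spread was not tested. Of the 79, 5.06% had IDs outside Ensembl's naming (4 genes), against 3.40% of the 12160.

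The same limits were applied with the groups in other roles, to place the set among the other courses over time; the 5 CPM limit was put on the group that was higher, or on both groups that were. The mirror image, genes lower at 7 d than in both other groups and alike in these, numbered 48. Genes higher at 1 d alone numbered 1128, and genes lower at 1 d alone numbered 104. Genes raised to a like extent at 1 d and 7 d numbered 74, and those lowered to a like extent numbered 5. These counts share libraries and were not tested against each other. They used CPM on library totals. With that scaling the median log2 fold change of 1 d over Control was 0.07 over all tested genes, against -0.02 with TMM. The counts in other roles were not repeated with another scaling.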

How the data were processed

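The counts deposited by the authors were raw whole numbers for 34784 rows in 9 libraries. Per the submitters' processing notes, the authors used HISAT2 (2.0.5) with featureCounts (1.5.0-p3), and DESeq2 (1.16.1) is also listed. Build, annotation and strand setting were not given in the sources used here, so overlapping genes and near-identical copies may share counts. Groups came from the sample titles. The genes described, and the lists and tests, were chosen with earlier results of these data known. CPM in the choice used library totals. The model was edgeR's quasi-likelihood test (edgeR 4.0.16, R 4.3.3) with TMM scaling and the filterByExpr function, tested on simulated data. DESeq2 1.42.0 was an alternative. Since no ID had a symbol, 18 pathway lists and 19 lists of cell type markers could not be used, the count of list genes planned from them was not made, and no sequence was matched. Genes were to be named by their difference from Control at 7 d, and without symbols the first 2 were given by ID; other genes are described by rank.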

Additional observations from a re-analysis of the deposited data

Results flagged for a closer look

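Both genes given by ID departed from Control by different amounts at the 2 times, as measured by the direct comparison of 7 d with 1 d in the edgeR model. The log2 fold change of 7 d over 1 d was 4.56 for Novel01075 and 1.59 for ENSRNOG00000017369. Both genes were chosen for this difference, so it is a description. In Novel01075 it rested mostly on 2 of the 3 libraries of 7 d. The third had only 13 counts, and its 0.719 CPM was 2.22 times the highest Control or 1 d library.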

How the results depend on the processing

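The number of genes kept by the rule was 79 with library totals, 89 with TMM-scaled sizes (72 shared with the 79), 86 with DESeq2 size factors (72 shared), 85 and 68 with pseudocounts of 0.5 and 2 CPM (78 and 65 shared) and 104 with a limit of 2 CPM (79 shared). Leaving out 1 library, which also leaves fewer values for the separation of libraries to meet, gave 68 genes (without 7 d replicate 2) to 115 (without 7 d replicate 1). The number of members called higher at 7 d than in Control was 34, 59 by DESeq2, 9 in a fit of the 2 groups alone, and 1 to 46 with a library left out. The number called at 1 d against Control was 4, 2 in a fit of the 2 groups alone, and 1 to 4 with a library left out. With the replicate number as a block (replicate block) the 3 numbers called were 23 and 72 higher at 7 d than in Control and than at 1 d, and 2 at 1 d. Deviations of libraries with the same number correlated at -0.24 to 0.05 across genes. Libraries with different numbers were not compared in this way, so whether the numbers pair the libraries was not settled. The call of Novel01075 at 7 d against Control was lost in 11 of 15 alternatives and that of ENSRNOG00000017369 in 1, without Control replicate 2; no direction changed. The cause of these changes was not tested.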
